A study of Saccharomyces cerevisiae with 6 samples.

Results

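Autophagy is the route by which yeast encloses parts of its own cytoplasm in a double membrane and delivers them to the vacuole for breakdown. The genes examined here encode the core of that machinery and the receptors that choose its cargo. They are ATG1 to ATG40 as far as they were listed by systematic name, and VPS30, also known as ATG6. They were chosen by name and not by any measured value, though with earlier results of these data known. All 32 listed genes were on the arrays, out of 5657 genes tested, each read by 1 probe set of the kind designed for a single gene.

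BSA had been added to 3 cultures of the Saccharomyces cerevisiae wild-type strain CEN. PK 113-7D, and 3 control cultures of the same strain had none. All were grown aerobically at 30 °C and 175 rpm in 50 mL of medium in baffled 250 mL flasks, and each gave 1 Affymetrix array from total RNA. BSA usually stands for bovine serum albumin, but the labels give only the letters. Neither the amount nor the medium is given in the sources used here. One wild-type strain at 1 sampling time was studied, and the labels differ on that time: the protocol gives 48 h, and the design text places sampling early in growth on glucose.

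In growing cells the TORC1 kinase complex holds autophagy down. When nitrogen or other nutrients run short, the Atg1 kinase complex assembles beside the vacuole, a phosphatidylinositol 3-kinase (PI3-kinase) marks the site with the lipid PI3P, and vesicles carrying Atg9 supply membrane. A pair of ubiquitin-like systems then attaches Atg8 to the growing membrane. Selective receptors tie cargo to Atg8, and a related constitutive route, the cytoplasm-to-vacuole targeting (Cvt) pathway, carries a few vacuolar hydrolases in fed cells.

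Values are on the authors' log2 scale. A fold change is the mean of the 3 arrays with BSA minus the mean of the 3 without it. A gene was called higher or lower when its limma p-value, adjusted by Benjamini-Hochberg over all 5657 genes, was under 0.05. Levels of different genes are not compared, because each probe set has its own brightness. The limma p-values rest on the spread between 3 cultures per group, with each gene's variance drawn toward that of all genes. They measure no other source of variation.

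Arrays of a group lay much closer to each other than to arrays of the other group, with an SD over genes of 0.0567 to 0.198 within groups against 0.625 to 0.732 between them. Control replicates 2 and 3 were the closest pair (0.0567), so member counts are also given with their mean counted as 1 sample. Over all genes the fold changes had a median of -0.13 (log2), and it moved to 0.00 when arrays were centred on their median deviation from the gene means. Weak changes below therefore depend on the scaling between arrays. The strain is a haploid of mating type a. Of 4 alpha-cell genes, MF(ALPHA)1, MF(ALPHA)2 and STE3 lay below the first quartile of all 6 arrays and SAG1 below that of 3. Of 5 a-cell genes, MFA1, MFA2 and STE2 did not pass, while STE6 averaged 7.46 with BSA and 8.17 without it and BAR1 6.55 with BSA and 7.73 without it. Both fell, and BAR1 lay below the first quartile of 3 arrays. Of 5 glucose-repressed genes, FBP1 rose (9.92 with BSA and 8.72 without it), ADH2 fell (8.27 with BSA and 9.03 without it), as did PCK1 (10.49 with BSA and 10.88 without it), and ICL1 and MLS1 did not pass. ICL1 averaged 10.53 with BSA and 10.83 without it, and MLS1 11.01 with BSA and 10.82 without it. FBP1, PCK1, ICL1 and MLS1 lay above the third quartile of every array (8.425 to 8.54). ADH2 lay above it only without BSA. Each probe set has its own brightness, and the growth phase was not tested.

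The autophagy genes did not move as a block. With BSA, the Atg8-conjugating enzyme ATG3, the kinase ATG1, the scaffold ATG11 and the endoplasmic reticulum (ER) receptors ATG39 and ATG40 rose about 2-fold or more, and ATG5, the acceptor of Atg12, fell about as far. The Cvt receptor ATG19, its paralog ATG34, the PI3-kinase subunits VPS30 and ATG14 and the Atg9 traffic factors ATG23 and ATG27 fell by less. Of these, ATG34, VPS30, ATG14 and ATG23 lay within the quartiles of all genes (-0.42 to 0.27). The ATG14 and ATG19 calls were not kept under every scaling. Of the 32 genes, 11 were called higher, 10 lower and 11 neither. The share called, 65.6%, compares with 75.4% of all genes. The share higher was 34.4% against 28.3% of all genes, and the share lower 31.2% against 47.1%. At least 2-fold changes were 4 higher and 1 lower, against 7.04% and 1.96% of all genes. In 22 members no array of one group reached the values of the other, which is 68.8% of them, against 79.5% of all genes. The median log2 fold change was 0.01 over the members and -0.13 over all genes.

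**Figure D1:**
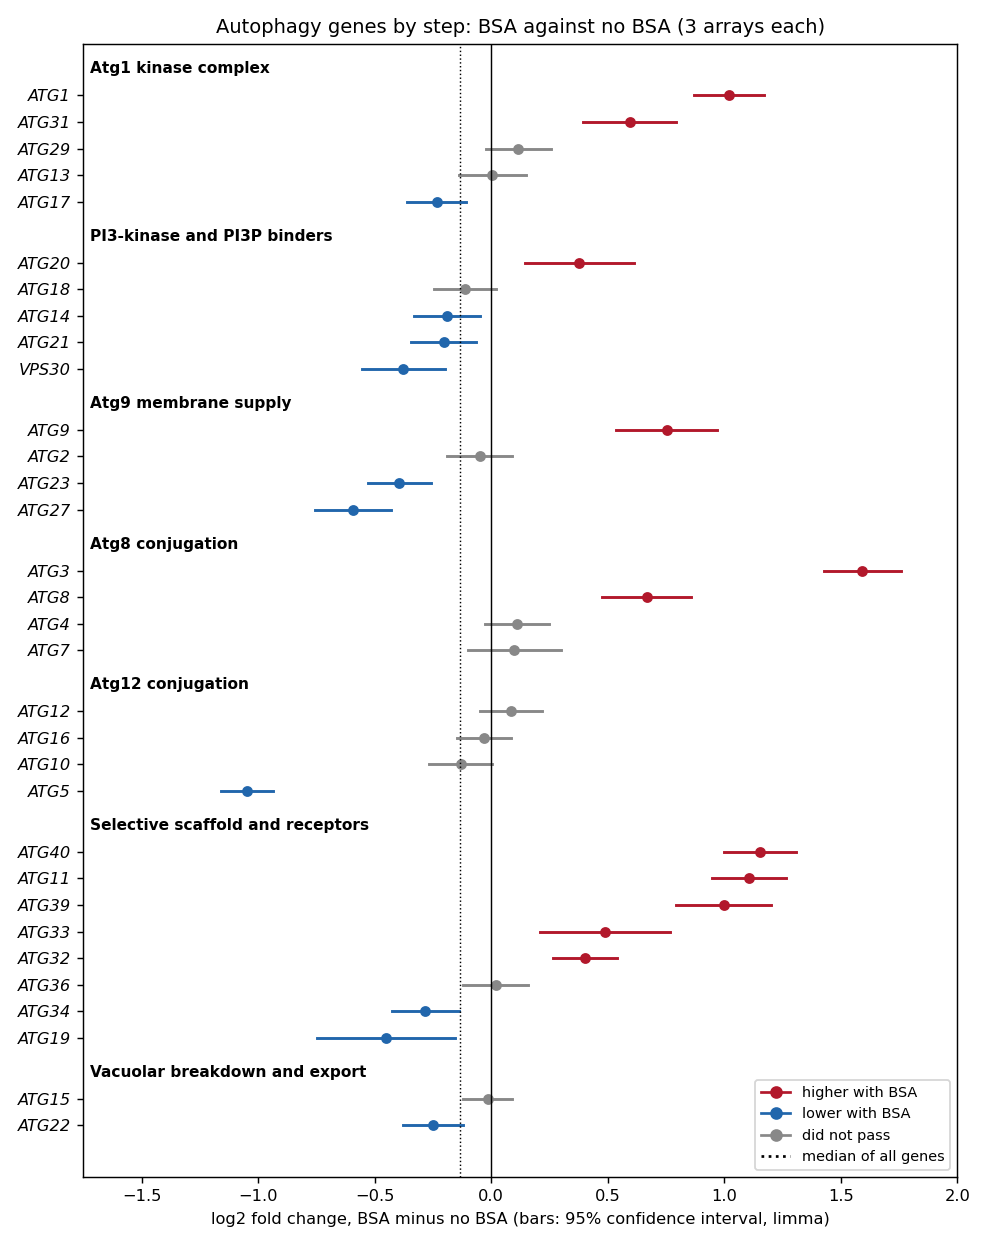
Log2 fold changes (BSA minus no BSA, points) with limma 95% confidence intervals (bars) of the 32 autophagy genes, grouped by step, 3 arrays per group. ATG3 lies highest at 1.59 and ATG5 lowest at -1.05, and each step but the Atg8 and Atg12 conjugation systems and the vacuolar step holds called genes of both directions; the dotted line marks the median of all genes at -0.13.

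The first step is the Atg1 kinase complex. ATG1 (YGL180W) encodes its catalytic subunit, the protein kinase that starts the process. ATG1 stood at 9.21, 9.16 and 9.07 with BSA, against 8.05, 8.11 and 8.21 without it. The groups were about a whole log2 unit apart, and no array of one came near the other. The fold change was 1.02 ± 0.06 (SE), or 2.03-fold (limma adjusted p = 1.07e-05). ATG13 (YPR185W), the regulatory subunit through which TORC1 acts on the kinase, had overlapping groups, at 7.53 ± 0.04 with BSA and 7.52 ± 0.10 without it (SD, n = 3). Its log2 fold change of 0.01 had a 95% confidence interval of -0.14 to 0.15, which excludes a 2-fold change. The sign turned negative with array weights, without BSA replicate 2 and without control replicate 1.

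The other 3 proteins of this step form the scaffold that gathers the complex in starved cells, and their transcripts did not move alike. ATG31 (YDR022C) averaged 8.18 ± 0.17 with BSA and 7.58 ± 0.01 without it, and rose by 0.59 ± 0.08 (SE). The BSA values of 8.37, 8.07 and 8.08 all lay above the controls, with replicate 1 the highest. ATG17 (YLR423C), the organiser of the scaffold, averaged 6.99 ± 0.07 with BSA and 7.22 ± 0.04 without it, a change of -0.23 ± 0.05. That call was lost after quantile normalization, median deviation centring and cyclic loess (adjusted p = 0.0825, 0.144 and 0.492; 0.00143 to 0.492 across 19 alternatives). ATG29 (YPL166W) had a change of 0.12 ± 0.06 and did not pass, although it was called higher under both centrings and cyclic loess, and its signal lay below the first quartile of every array.

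Differences between partner genes within an array are read only for how they change between the groups. ATG1 minus ATG13 was 1.62 ± 0.09 with BSA and 0.60 ± 0.02 without it (SD, n = 3). ATG31 minus ATG29 was 2.68 ± 0.19 with BSA and 2.20 ± 0.04 without it. The groups did not overlap in either difference, and the exact two-sided permutation test gave p = 0.1 for both, the smallest p that 3 against 3 arrays allow, so no such pair could pass at 0.05 (adjusted p = 0.14 over 7 pairs of partners). The gap between the changes of the partners was 1.02 for the first pair and 0.48 for the second.

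The PI3-kinase step held mostly small decreases. VPS30 (YPL120W), the yeast Beclin subunit shared by autophagy and vacuolar sorting, was at 6.85, 7.14 and 6.97 with BSA and at 7.36, 7.34 and 7.39 without it, a change of -0.38 ± 0.08 (SE; limma adjusted p = 0.00246). It kept its call at -0.24 with median deviation centring and -0.19 after cyclic loess. ATG14 (YBR128C), the subunit that directs the kinase to autophagy, averaged 6.27 ± 0.10 with BSA and 6.46 ± 0.03 without it, below the first quartile of all arrays. Its call (-0.19 ± 0.06, adjusted p = 0.0227) was lost without control replicate 3 (adjusted p = 0.0781), with control replicates 2 and 3 as 1 sample (adjusted p = 0.0604) and under 3 scalings (adjusted p = 0.0135 to 0.662 across the alternatives).

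Atg18 and Atg21 are related proteins that bind PI3P. ATG21 (YPL100W) averaged 7.99 ± 0.09 with BSA and 8.19 ± 0.04 without it, a change of -0.20 ± 0.06. This call too was lost without control replicate 3 or BSA replicate 3 (adjusted p = 0.0638 and 0.0515), with control replicates 2 and 3 as 1 sample (adjusted p = 0.0502) and with median deviation centring (adjusted p = 0.255; 0.00183 to 0.255 across the alternatives). ATG18 (YFR021W) had a change of -0.11 ± 0.06, did not pass, was called lower with array weights (adjusted p = 0.0117), and turned positive under quantile normalization, median deviation centring and cyclic loess. ATG18 minus ATG21 was -1.31 ± 0.02 with BSA and -1.40 ± 0.03 without it (SD, n = 3), without overlap (exact two-sided permutation p = 0.1, adjusted p = 0.14). The sorting nexin gene ATG20 (YDL113C), whose product binds PI3P on endosomes, was the step's only called riser: it averaged 8.09 ± 0.20 with BSA and 7.72 ± 0.08 without it, a change of 0.38 ± 0.10 (limma adjusted p = 0.0093).

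ATG9 (YDL149W) encodes the membrane protein whose vesicles seed the new membrane. Its values were 7.66, 8.02 and 7.93 with BSA and 7.12, 7.13 and 7.10 without it. All arrays with BSA were higher, BSA replicate 1 the least so. The rise was 0.75 ± 0.09 (SE), or 1.68-fold (limma adjusted p = 0.000184). ATG23 (YLR431C) and ATG27 (YJL178C) encode factors that Atg9 needs to leave the Golgi and reach the assembly site, and both went the other way. ATG27 stood at 7.96, 8.08 and 8.20 with BSA and at 8.71, 8.70 and 8.61 without it, and fell by 0.59 on the log2 scale (SE 0.07, adjusted p = 0.000156). ATG23 averaged 7.45 ± 0.07 with BSA and 7.85 ± 0.06 without it, a change of -0.39 ± 0.06 that stood at -0.26, still called, with median deviation centring. ATG2 (YNL242W), the lipid transfer protein at the membrane edge, had a change of -0.05 ± 0.06 that did not pass and that turned positive under quantile normalization and median deviation centring and, with an adjusted p = 0.0449, cyclic loess.

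The Atg8 system held the largest change among the 32 genes. ATG3 (YNR007C) encodes the E2-like enzyme that joins Atg8 to the lipid phosphatidylethanolamine. ATG3 was at 9.65, 9.40 and 9.47 with BSA, against 7.95, 7.87 and 7.92 without it. The groups were far apart, and the spread within each was small. The rise of 1.59 ± 0.07 (SE) is 3.02-fold (limma adjusted p = 2.8e-06) and placed ATG3 at percentile 97.5 of all genes by fold change.

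ATG8 (YBL078C) encodes the ubiquitin-like protein itself, which coats the membrane and binds receptors. It stood at 11.205, 10.905 and 10.997 with BSA and at 10.39, 10.42 and 10.30 without it. All arrays with BSA were above the controls, replicate 1 the highest. The rise was 0.67 ± 0.08 (SE), or 1.59-fold (limma adjusted p = 0.0002). ATG4 (YNL223W) encodes the protease that trims Atg8 and releases it from membrane, and ATG7 (YHR171W) the E1-like enzyme that activates both Atg8 and Atg12.

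Neither ATG4 nor ATG7 passed, and both had overlapping groups. ATG4 was at 7.16, 7.24 and 7.07 with BSA and at 7.09, 7.02 and 7.03 without it, a change of 0.11 with a 95% confidence interval of -0.03 to 0.25. ATG7 was at 7.23, 7.57 and 7.42 with BSA and at 7.34, 7.25 and 7.33 without it, with an interval of -0.10 to 0.30. For ATG7 the array with the lowest value was BSA replicate 1, and without it the gene was called higher (0.18 ± 0.06, adjusted p = 0.0362), as it was with array weights (adjusted p = 0.0239; 0.0155 to 0.837 across 19 alternatives). ATG4 was called higher under all 4 scalings tried and ATG7 under 2 of them, and all of those changes were at most 0.30.

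**Figure D2:**
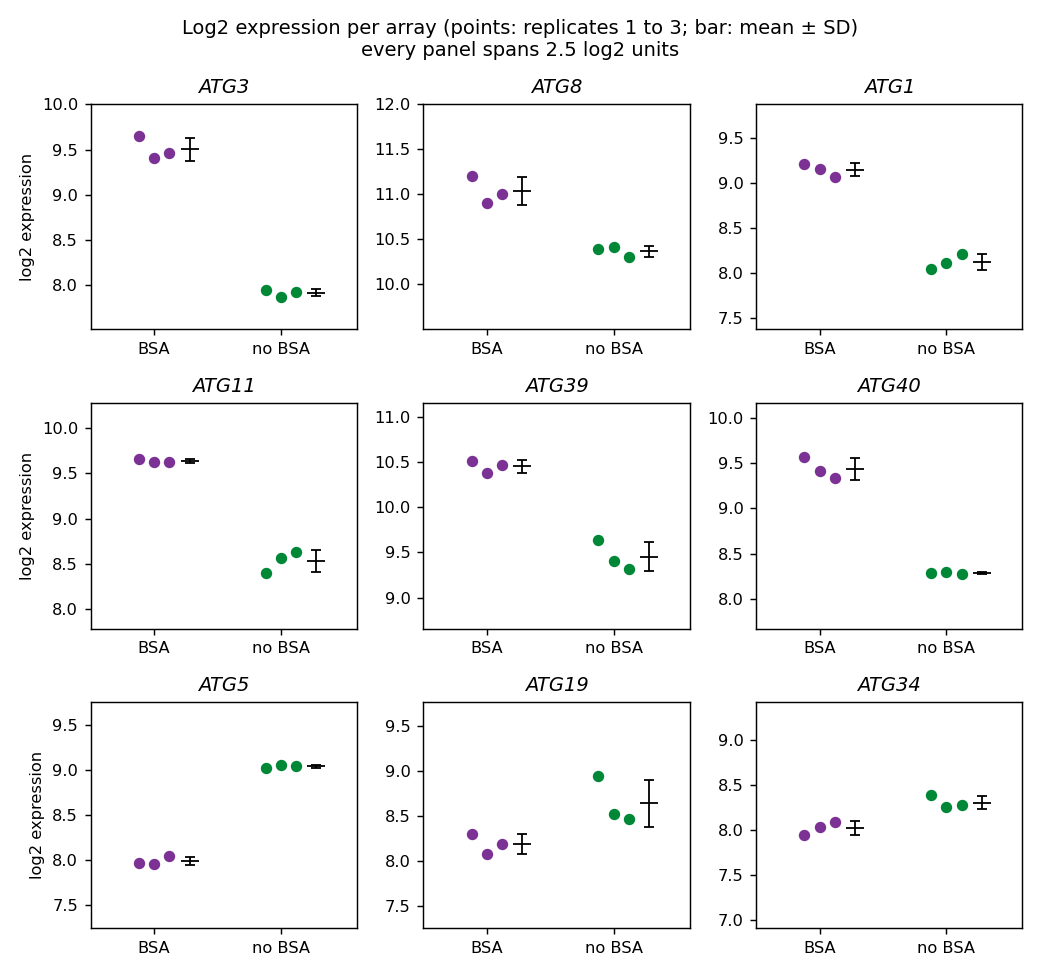
Log2 expression (vertical axes, each spanning 2.5 units) on each array for 9 autophagy genes, BSA left and no BSA right, with points for replicates 1 to 3 and bars for mean ± SD. ATG3, ATG8, ATG1, ATG11, ATG39 and ATG40 lie higher with BSA and ATG5, ATG19 and ATG34 lower, with no overlap between the groups in any panel.

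In the second conjugation system, Atg12 is joined to Atg5, and the pair with Atg16 helps place Atg8 on the membrane. ATG5 (YPL149W) was at 7.97, 7.96 and 8.05 with BSA, against 9.02, 9.05 and 9.05 without it. The groups were a full log2 unit apart, and neither had an SD above 0.05. The change of -1.05 ± 0.05 (SE) makes ATG5 2.07-fold lower with BSA (limma adjusted p = 2.98e-06), at percentile 1.57 of all genes. The rest of this system did not pass. ATG12 (YBR217W) had a change of 0.08 ± 0.06, ATG10 (YLL042C), the E2-like enzyme of this system, -0.13 ± 0.06, and ATG16 (YMR159C) -0.03 ± 0.05. These signs do not all hold: ATG10 was called lower without BSA replicate 3 (-0.17, adjusted p = 0.0374) and turned positive under median deviation centring and cyclic loess, and ATG16 under all 4 scalings, while ATG12 was called higher under 3 of them. ATG16 lay below the first quartile of every array.

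ATG3 minus ATG10 was 2.29 ± 0.17 with BSA and 0.57 ± 0.05 without it (SD, n = 3), a gap between the changes of these E2-like enzymes of 1.72. For the ubiquitin-like proteins, ATG8 minus ATG12 was 4.06 ± 0.20 with BSA and 3.48 ± 0.08 without it. Again both gave p = 0.1 in the exact two-sided permutation test (adjusted p = 0.14), with no overlap of the groups.

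Of the 8 genes for the scaffold and receptors of selective autophagy, 5 were called higher (62.5%, against 28.3% of all genes) and 2 lower (25%, against 47.1%), with a median log2 fold change of 0.45 against -0.13 for all genes. ATG11 (YPR049C) encodes the scaffold that links receptors to the Atg1 kinase. ATG11 was at 9.66, 9.62 and 9.63 with BSA and at 8.40, 8.57 and 8.63 without it. The controls varied more than the cultures with BSA and stayed a full unit below them. It rose by 1.11 ± 0.07 (SE), or 2.15-fold (limma adjusted p = 8.86e-06).

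ATG39 (YLR312C) and ATG40 (YOR152C) encode the receptors for the ER, Atg39 at the nuclear envelope and Atg40 in the rest of the network. ATG39 was at 10.51, 10.38 and 10.46 with BSA and at 9.64, 9.40 and 9.32 without it, a rise of 0.998 ± 0.087 (limma adjusted p = 3.63e-05). ATG40 was at 9.56, 9.41 and 9.33 with BSA and at 8.28, 8.30 and 8.27 without it, a rise of 1.15 ± 0.07, or 2.22-fold (adjusted p = 7.08e-06). For ATG39 the control replicate 1 was the highest control, and for ATG40 the controls were nearly identical. ATG39 minus ATG40 was 1.02 ± 0.10 with BSA and 1.17 ± 0.16 without it, groups that overlapped (exact two-sided permutation p = 0.3, adjusted p = 0.3).

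The genes for the removal of mitochondria, ATG32 and ATG33, rose by less. ATG32 (YIL146C), the receptor of mitochondria, was at 8.41, 8.42 and 8.29 with BSA and at 8.004, 7.999 and 7.903 without it, a rise of 0.40 ± 0.06 (limma adjusted p = 0.000449). ATG33 (YLR356W), an outer membrane protein that takes part in the removal of mitochondria, was at 9.49, 9.10 and 9.08 with BSA and at 8.88, 8.64 and 8.68 without it, a rise of 0.49 ± 0.12 (adjusted p = 0.00663). In ATG33 replicate 1 was the highest of each group, and the gap between the lowest BSA array and the highest control was small. ATG36 (YJL185C), the receptor of peroxisomes, was at 7.77, 7.79 and 7.83 with BSA and at 7.88, 7.72 and 7.73 without it. Its change of 0.02 ± 0.06 did not pass and had a 95% confidence interval of -0.12 to 0.16; it turned negative without control replicate 2 or 3 and with their mean as 1 sample, and passed as higher with median deviation centring (adjusted p = 0.0477; 0.0477 to 0.979 across the alternatives).

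ATG19 (YOL082W) encodes a receptor of the Cvt cargo and ATG34 (YOL083W) its paralog, and the genes lie next to each other on the same strand. ATG19 was at 8.30, 8.08 and 8.19 with BSA and at 8.94, 8.53 and 8.46 without it, a change of -0.45 ± 0.13 (limma adjusted p = 0.0127). Control replicate 1 stood well above the other controls. With median deviation centring the ATG19 call was lost (adjusted p = 0.0631; 0.000865 to 0.0631 across the alternatives). ATG34 was at 7.94, 8.03 and 8.09 with BSA and at 8.39, 8.25 and 8.27 without it, a change of -0.28 ± 0.06 (adjusted p = 0.00379) that kept its call under all 19 alternatives but shrank to -0.15 with median deviation centring (adjusted p = 0.0478). The difference between the paralogs was 0.17 ± 0.17 with BSA and 0.34 ± 0.19 without it, with overlapping groups (exact two-sided permutation p = 0.3, adjusted p = 0.3).

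At the vacuole, ATG15 (YCR068W) encodes the lipase that opens the delivered vesicles and ATG22 (YCL038C) a membrane protein that releases amino acids. ATG22 averaged 8.05 ± 0.08 with BSA and 8.30 ± 0.01 without it, a change of -0.25 ± 0.06 (SE; limma adjusted p = 0.00392) that was lost with median deviation centring (adjusted p = 0.0908; 0.00161 to 0.0908 across the alternatives). ATG15 was dim, below the first quartile of every array, at 5.36 ± 0.02 with BSA and 5.37 ± 0.02 without it. Its change of -0.02 did not pass, turned positive under both centrings and cyclic loess, and passed as higher with median deviation centring (adjusted p = 0.043; 0.043 to 0.932 across the alternatives).

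The scaling decides the balance between higher and lower members. As deposited it was 11 higher and 10 lower. It was 13 and 8 after quantile normalization and 13 and 10 with arrays centred on their median. With median deviation centring it was 17 and 5, and after cyclic loess 16 and 8. The balance over all 5657 genes moved too. As deposited, 1603 were higher and 2665 lower. The counts were 1698 and 2480 after quantile normalization, and 1719 and 2495 with arrays centred on their median. They were 2075 and 2051 with median deviation centring, and 1994 and 2072 after cyclic loess. Under all 19 alternatives that change the fit, 16 of the 21 called genes kept their call: the 11 higher ones, and VPS30, ATG23, ATG27, ATG5 and ATG34. The other 5, ATG14, ATG17, ATG19, ATG21 and ATG22, lost it under at least 1 alternative, and no called gene changed sign. The alternatives in the handling of probe sets could not change the values of these genes, which have 1 probe set each.

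**Figure D3:**
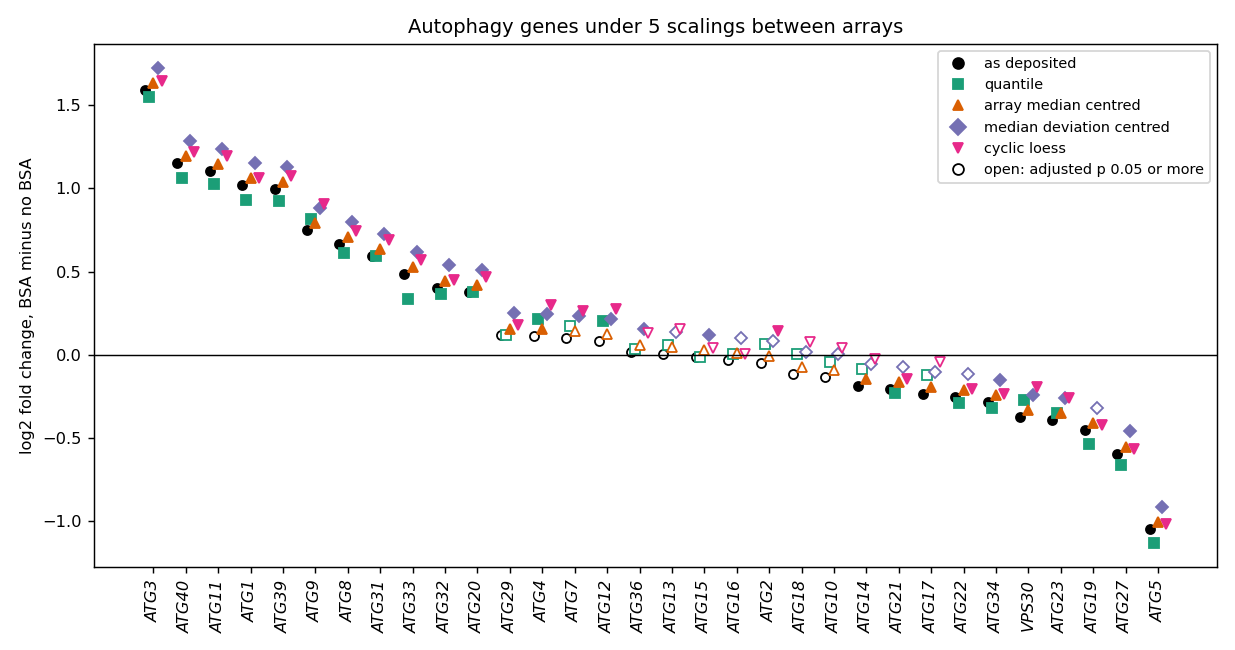
Log2 fold changes (vertical axis, BSA minus no BSA) of the 32 genes as deposited and under 4 scalings between arrays, with filled symbols for an adjusted p under 0.05. The 11 genes at the left and ATG34, VPS30, ATG23, ATG27 and ATG5 are filled under every scaling; of the others, ATG14, ATG17, ATG19, ATG21 and ATG22 lose a call, ATG2, ATG10, ATG15, ATG16 and ATG18 cross the line at 0 (ATG2 and ATG15 with a call under 1 scaling each), ATG4, ATG7, ATG12, ATG29 and ATG36 gain a call, and ATG13 stays above 0 without one.

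BSA replicate 1 stood apart to a small degree, with an SD over genes of 0.195 and 0.172 from the other BSA arrays, against 0.117 between those. Control replicate 1 stood apart more clearly, at 0.194 and 0.198 from the other controls, against 0.0567 between those. In 15 of the 21 called members BSA replicate 1 was the BSA array farthest from the control mean, in 6 it was replicate 2 and in 0 replicate 3. This count was not made over all genes. Without BSA replicate 1 there were 12 higher and 10 lower calls, so the counts did not rest on it. With control replicates 2 and 3 as 1 sample there were 11 higher and 8 lower. The SD of members had a median of 0.0828 with BSA and 0.0506 without it.

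The genes that act around this core were read from lists chosen by function. Of 14 genes of TORC1 and its inputs, 2 rose and 7 fell, with a median of -0.12, against the 28.3% higher, 47.1% lower and median of -0.13 of all genes. The kinase SCH9, a TORC1 target, rose by 0.49 ± 0.07 (SE) and MEH1, a vacuolar anchor of the complex, by 0.21 ± 0.05. The TORC1 subunit KOG1 changed by -0.53 ± 0.06, IML1, a brake on TORC1, by -0.47 ± 0.06 and TAP42, a phosphatase partner, by -0.46 ± 0.05. TOR1 averaged 6.92 with BSA and 7.25 without it and fell, whereas TOR2 had a change of 0.00 ± 0.12. The list held 5 higher and 6 lower with median deviation centring, and 3 and 4 after cyclic loess. Of all 5657 genes, the first scaling gave 2075 higher and 2051 lower, and the second 1994 and 2072.

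Among 9 regulators of ATG transcription, 3 rose and 4 fell, shares near those of all genes, with a median of 0.02. The largest change was in PHO23, part of the Rpd3 deacetylase complex and a known repressor of ATG genes, which averaged 8.37 with BSA and 7.33 without it (1.04 ± 0.06). RPH1, a histone demethylase that represses ATG genes, rose by 0.32 ± 0.05 and the GATA activator GAT1 by 0.33 ± 0.08, a call lost after quantile normalization alone among the alternatives (adjusted p = 0.082). SIN3, the corepressor in the same deacetylase complex, changed by -0.56 ± 0.05, the kinase RIM15 by -0.41 ± 0.06 and the activator GCN4 by -0.27 ± 0.06. UME6, which recruits the complex to the ATG8 promoter, had a change of 0.02 ± 0.10 and did not pass.

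Among 9 partners at the assembly site, 1 rose and 6 fell, with a median of -0.30, against 28.3% higher, 47.1% lower and a median of -0.13 over all genes. With median deviation centring 2 were higher and 4 lower, against 2075 higher and 2051 lower of all 5657 genes. The PI3-kinase subunits VPS15 (-0.67 ± 0.06) and VPS34 (-0.49 ± 0.05) and the linker ATG38 (-0.50 ± 0.05) all fell, as did VAC8, the vacuolar anchor of the assembly site (-0.52 ± 0.05). With VPS30 and ATG14 all 5 genes of the autophagy PI3-kinase were called lower as deposited, in a background of 47.1% of all genes. This set joins members and partners and is not one of the steps or lists used here. VPS30 (-0.38) and ATG14 (-0.19) lay within the quartiles of all genes, -0.42 to 0.27. The ATG14 call was lost under 5 of 18 alternatives, and VPS34 was named after its value was seen. SNX4, the sorting nexin that pairs with Atg20, rose by 0.80 ± 0.06, the same direction as ATG20.

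Of 13 genes for fusion with the vacuole, 2 rose and 9 fell, with a median of -0.23, against the same 28.3%, 47.1% and -0.13 over all genes. The largest decreases were in MON1 (-0.69 ± 0.06) and CCZ1 (-0.52 ± 0.05), which together activate the GTPase Ypt7, and in PEP3 (-0.57 ± 0.06), a tether subunit. The fusion protein YKT6 rose by 0.44 ± 0.07. VAM3, the vacuolar syntaxin, rose by 0.13 ± 0.05 (adjusted p = 0.0444), a call lost without BSA replicate 2 or 3 or without any one control (adjusted p = 0.0707 to 0.139) and, with the replicate number as a block, at an adjusted p = 0.0632. With median deviation centring 5 of the 13 were called lower, against 2051 of all 5657 genes under that scaling.

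Of the 4 Cvt cargo genes, 2 rose and 2 fell (median -0.06). Over all genes 28.3% were higher and 47.1% lower, with a median of -0.13. APE1 encodes the aminopeptidase that is the main Cvt cargo, and AMS1 the alpha-mannosidase. APE1 averaged 8.65 with BSA and 9.63 without it and changed by -0.97 ± 0.08 (SE), and AMS1 by -0.62 ± 0.07. Both fell, as did the Cvt receptor gene ATG19 and its paralog ATG34. APE4, another aminopeptidase carried by Atg19, rose by 0.96 ± 0.08 and LAP3 by 0.49 ± 0.13. Of 6 genes for vacuolar breakdown and amino acid export (median -0.15), 2 rose and 3 fell, shares near those of all genes. The proteases PRC1 (-0.58 ± 0.09), ATG42 (-0.31 ± 0.07) and PRB1 (-0.24 ± 0.04) fell. The exporters AVT3 (0.52 ± 0.06) and AVT4 (0.22 ± 0.07) rose, while ATG22, which shares that task, was called lower. The AVT4 call was lost without BSA replicate 2 or 3 or control replicate 1 or 2 (adjusted p = 0.061 to 0.0782), and the PRB1 call with median deviation centring (adjusted p = 0.0541).

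**Figure D4:**
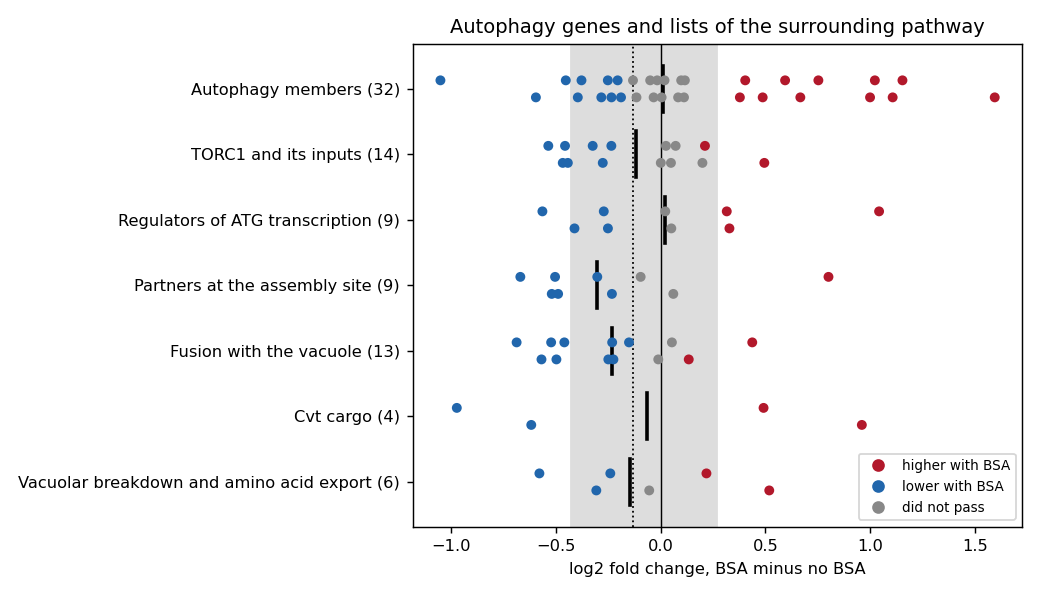
Log2 fold changes (horizontal axis, BSA minus no BSA) of the autophagy genes and of 6 lists of surrounding genes, 1 point per gene, with a vertical bar at each list's median. The grey band spans the lower to the upper quartile of all genes, -0.42 to 0.27, and the dotted line their median; the fusion and assembly-site lists have medians of -0.23 and -0.30, and the autophagy genes 0.01.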

How the data were processed

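Per the submitters' processing notes, the authors used PLIER and R 2.10.1. The deposited table holds log2 values for 5705 probe sets. Base 2 was taken from their range, and no source used here gives the background correction, normalization or filters. The probe set with the highest mean was kept per gene (5657 genes), and names came from the RefSeq table of assembly R64. BSA was set against no BSA, 3 arrays each, with limma 3.58.1 in R 4.3.3 on the values as deposited, with p-values adjusted over all genes. On simulated data with 5657 genes and 3 arrays per group, 50 genes were changed at each size of change. Of these, 44% were recovered at a change of 0.3, 78% at 0.5 and 96% at 1 (log2), with 7 false calls. In the measured data 75.4% of all genes were called, so these rates need not hold for them. Precision is limited by the number of arrays.

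Pairs of partners were compared by exact permutation tests (scipy 1.17.1). The members, their steps, the lists of surrounding genes and the alternatives were chosen with earlier results of these data known. All members are named. Of each list, up to 3 called genes per direction with the largest change are named, and further genes (TOR1, TOR2, UME6, VPS34) were chosen after their values were seen. Alternatives for the surrounding genes were added after the data were seen.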

Additional observations from a re-analysis of the deposited data

How the results depend on the processing

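The counts of 11 higher and 10 lower members stayed within 1.5 times of themselves under 19 of 21 alternatives. They were 17 and 5 with arrays centred on their median deviation, and 4 and 1 when a 2-fold change was required as well. Over all 5657 genes the first of these gave 2075 higher and 2051 lower, and the second 398 and 111. Leaving out 1 array gave 11 to 12 higher and 8 to 10 lower. Replicate numbers are shared by the groups but did not pair the arrays: same-numbered arrays had correlations of their deviations of 0.10, 0.02 and 0.04, and not every array matched its own number best. With the replicate number as a block, 11 members were higher and 10 lower, and no member changed its call. The SE fell for some members, as for ATG33 (0.119 to 0.062), and rose for others, as for ATG1 (0.064 to 0.074). Of 603 combinations of a member and an alternative, 551 kept direction and call. These include alternatives in how probe sets of a gene are averaged, kept or left out. Those could not change a member's values, because each member has 1 probe set. The call was lost in 14 combinations (5 members) and gained in 19 (9 of the 11 uncalled members). The sign changed in 21, all of uncalled members, and 2 of these (ATG2 after cyclic loess, ATG15 with median deviation centring) are also among the gains.

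The sign changes gave these log2 values. ATG13 was at -0.022 with array weights, -0.017 without BSA replicate 2 and -0.044 without control replicate 1, in a range of -0.044 to 0.051 when 1 array was left out. ATG36 was at -0.011 and -0.0035 without control replicate 2 and 3 (-0.011 to 0.071 when 1 array was left out), and -0.0073 with them as 1 sample. After quantile normalization ATG18 was at 0.0069, ATG2 at 0.066 and ATG16 at 0.0032. With arrays centred on their median ATG16 was at 0.0088 and ATG15 at 0.026. With median deviation centring ATG18 was at 0.018, ATG2 at 0.084, ATG10 at 0.0016, ATG16 at 0.10 and ATG15 at 0.12. After cyclic loess ATG18 was at 0.078, ATG2 at 0.14, ATG10 at 0.043, ATG16 at 0.0052 and ATG15 at 0.041. Of the 32 members, 5 (ATG14, ATG15, ATG16, ATG18 and ATG29) lay below the first quartile of every array, and all 5 were left out with the dimmest 25% of genes.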

Other observations

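Further genes of the ATG series, taken from the reference names and not among the 32, moved in both directions. ATG41, which takes part in the movement of Atg9, averaged 10.64 ± 0.11 with BSA and 8.74 ± 0.11 without it (SD, n = 3), a rise of 1.90 ± 0.08 (SE), larger than that of any of the 32 members. ATG26, a sterol glucosyltransferase, rose by 0.95 ± 0.08. ATG38 (-0.50 ± 0.05) and ATG42 (-0.31 ± 0.07), also named with the surrounding genes, fell. ATG45 had a change of 0.17 ± 0.09 and did not pass.

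Some members share an upstream region with another gene. A divergently transcribed neighbour was measured for 17 members, of which 11 were called. Of these 11 neighbours, 4 were called in the direction of the member, 6 in the other direction and 1 in neither. Over all genes 28.3% were called higher and 47.1% lower, and the counts were not tested against these shares. PDR5, the drug pump gene beside ATG40, changed by -1.02 ± 0.15 while ATG40 rose by 1.15 ± 0.07, and LRO1, beside ATG3, had a change of 0.00 ± 0.05. RPL17B, a ribosomal protein gene beside ATG27, changed by -0.92 ± 0.07, the direction of ATG27. These 3 neighbours were chosen after their values were seen.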
